A study of Mus musculus with 3 samples.

Results

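The small RNA cargo of testis EVs contained the related miRNAs miR-28a, miR-151 and miR-708, which were picked by name from the deposited catalogues as every mature or hairpin entry of an arm of miR-28a, miR-28c, miR-151 or miR-708. The names matched 6 of the 805 miRNA identifiers counted, namely mmu-miR-151-5p, mmu-miR-151-3p, mmu-miR-28a-5p, mmu-miR-28a-3p, mmu-miR-708-5p and mmu-miR-708-3p. No entry of either arm of miR-28c, and none of miR-28b, was listed in any library. The 3 libraries belong to 1 group, EVs collected from the decapsulated testes of C57/BL6 male mice at postnatal day 7 (PND7), with 10 mice pooled for each library, so no condition could be compared with another. EVs were treated with proteinase K, PMSF and RNase A before RNA extraction, in every library alike. The titles call the EVs treated, and this was the only treatment that the labels describe for them. A whole testis holds germ, Sertoli, peritubular and interstitial cells, and the libraries do not show which of them released a given EV.

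A miRNA gene is transcribed as a hairpin, from which the enzyme Dicer releases a duplex with an arm from the 5′ side (5p) and an arm from the 3′ side (3p). An Argonaute protein keeps an arm of the duplex, and bases 2 to 8 of that arm, the seed, pair with target mRNAs. The hairpins of miR-28 and miR-151 are known to derive from LINE-2, an old family of retrotransposons, and the arms of these relatives therefore resemble each other. In the GRCm38 annotation Mir151 lies on chromosome 15 from 73254815 to 73254882 on the minus strand, within an intron of Ptk2, the gene of focal adhesion kinase, and also within an intron of the antisense gene 1700085D07Rik. Mir28a is at 24827855 to 24827940 of chromosome 16, plus strand, in an intron of Lpp, which encodes a LIM-domain protein of focal adhesions. Mir708 is at 96249424 to 96249532 of chromosome 7, plus strand, in an intron of Tenm4, a teneurin gene. Mir28c lies on chromosome 15 from 53614205 to 53614279 on the minus strand, in an intron of Samd12. All 4 miRNA genes are on the same strand as their protein-coding hosts.

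The mature sequences of miR-28a and miR-708 are shown from 5′ to 3′ because they show which arms could read the same targets. They are those of RefSeq on GRCm38.p6, with the seed in capitals. Of the 6 members, 4 were in that table, and the arms of miR-151 are named only.
miR-28a-5p: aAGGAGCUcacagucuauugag
miR-708-5p: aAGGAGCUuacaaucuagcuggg
miR-28a-3p: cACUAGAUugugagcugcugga
miR-708-3p: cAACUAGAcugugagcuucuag

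miR-28a-5p and miR-708-5p had the same seed, AGGAGCU, and no other of the 1679 mature names in the table had it. Aligned from base 1 at the 5′ end, they were equal at 16 of 22 positions. With miR-28a-5p given first, the substitutions were C9U, G13A, U18G, U19C, G20U and A21G, all of them outside the seed. The 3p arms had different seeds, ACUAGAU in miR-28a-3p and AACUAGA in miR-708-3p, and no other mature name in the table had either of them. These seeds were not identical but shared the run ACUAGA, offset by a single base. The longest run shared by the 3p arms was UGUGAGCU, at bases 9 to 16 of miR-28a-3p and 10 to 17 of miR-708-3p. The arms of different hairpins were also complementary. The run AGCUCACAGUCUA, 13 bases from base 5 to base 17 of miR-28a-5p, is the exact reverse complement of bases 5 to 17 of miR-708-3p. Within the miR-28a hairpin itself, the longest such run between the arms was 8 bases, AGCUCACA. The authors do not state how reads matching several relatives were counted, and whether any reads did was not tested.

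Of the 6 members, 5 had mature counts in every library, and each of these passed a minimum of 10 counts in every library. Mature counts were scaled to CPM, the counts of an entry for every 1000000 mature counts of its library, and the libraries held 870967, 1005836 and 966468 mature counts in replicates 1, 2 and 3. Together the members held 0.320%, 0.345% and 0.293% of the mature counts in replicates 1, 2 and 3, with a mean of 0.319% ± 0.0257 (SD, n = 3). The exact binomial 95% interval reached from 0.308% to 0.332% in replicate 1, from 0.333% to 0.356% in replicate 2 and from 0.283% to 0.304% in replicate 3. Replicate 3 was the lowest, and its interval lay below those of the other libraries. Such intervals allow for counting error alone and not for the spread between libraries. PCR duplicates could not be recognised, so even the counting error may be understated.

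miR-151-5p was the most abundant member in every library. It had 1441, 2058 and 1815 mature counts in replicates 1, 2 and 3, or 1654, 2046 and 1878 CPM, and 1860 ± 196 CPM on average (SD, n = 3). It ranked 49th of 604 mature entries by its mean and made up 58.4% ± 6.17 (SD, n = 3) of the family's counts. The levels of the libraries were close to each other, and the highest exceeded the lowest 1.24-fold. The closest mature miRNAs in level, by the mean absolute log2 difference in CPM over the 3 libraries, were miR-341-3p with 0.090 and miR-154-5p with 0.18.

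miR-151-3p, the opposite arm, had 357, 625 and 424 mature counts in replicates 1, 2 and 3. Its level was 490 ± 115 CPM (SD, n = 3) at rank 96, and replicate 2 was the highest. miR-871-3p and miR-30a-3p were closest to it in level, at mean absolute log2 differences of 0.22 and 0.23. The 2 arms of miR-151 did not overlap over the libraries, since the lowest CPM of miR-151-5p, 1654, was above the highest of miR-151-3p, 621. How many other precursor hairpins had arms without overlap was not counted. An arm at least 2-fold higher in every library was common, in 61.5% of 117 precursors.

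miR-28a-3p had 364, 317 and 234 mature counts in replicates 1, 2 and 3, or 325 ± 88.3 CPM (SD, n = 3), at rank 117. miR-28a-5p, the arm with the seed AGGAGCU, had 129, 116 and 156 counts and 142 ± 23.7 CPM (SD, n = 3), at rank 157. The ranges of the arms did not overlap, as miR-28a-3p lay between 242 and 418 CPM and miR-28a-5p between 115 and 161 CPM. As for miR-151, the share of all precursors with such separate ranges was not counted, so this only describes miR-28a. Replicate 3 was the lowest for miR-28a-3p and the highest for miR-28a-5p. The closest miRNAs in level were miR-487b-3p and miR-199b-5p for miR-28a-3p, at 0.19 and 0.20, and miR-324-3p and miR-126a-5p for miR-28a-5p, at 0.18 and 0.22, all as mean absolute log2 differences over 3 libraries.

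miR-708-5p, the other arm with the seed AGGAGCU, had 492, 352 and 207 mature counts in replicates 1, 2 and 3. Its CPM of 565, 350 and 214 gave a mean of 376 ± 177 (SD, n = 3) at rank 113. The binomial intervals of the 3 libraries did not overlap, reaching from 516 to 617 CPM in replicate 1, from 314 to 388 in replicate 2 and from 186 to 245 in replicate 3. Its highest CPM was 2.64 times the lowest, and it was the only one of the 5 counted members with a factor of 2 or more. Of the 272 mature entries with at least 10 counts in every library, 40.4% had such a factor. miR-28a-3p was the closest miRNA to it in level, at a mean absolute log2 difference of 0.25, followed at 0.30 by a predicted miRNA that the authors numbered miR474-3p.

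miR-708-3p had 0 mature counts in every library, which allows at most 3.44, 2.98 and 3.10 CPM in replicates 1, 2 and 3 if 3 counts are taken as the limit of a count of 0. In order of mean level the members were miR-151-5p, miR-151-3p, miR-708-5p, miR-28a-3p, miR-28a-5p and miR-708-3p. miR-151-3p, miR-708-5p and miR-28a-3p had overlapping ranges, so their order does not exceed the spread between libraries.

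**Figure D1:**
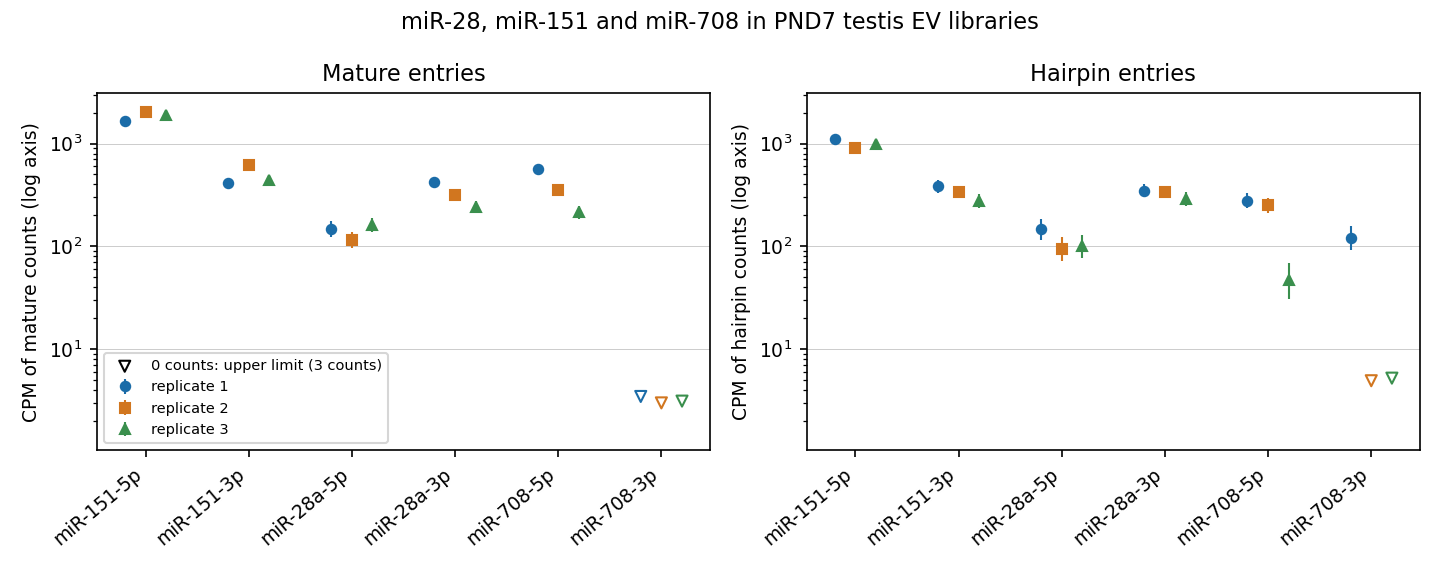
Level of each member arm in the 3 libraries, as CPM of the mature counts (left) and of the hairpin counts (right), on log axes. Points are libraries, bars are exact binomial 95% intervals, and open triangles are upper limits where the count was 0. Mature miR-151-5p lies between 1654 and 2046 CPM and mature miR-708-3p is at 0 in every library.

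The arms were then compared within each library, since both are cut from the same hairpin. The 5p arm led in miR-151 and the 3p arm in miR-28a, and this held in every library. In miR-151 the mature 5p counts were 4.04, 3.29 and 4.28 times the 3p counts in replicates 1, 2 and 3, a mean log2 ratio of 1.94 ± 0.20 (SD, n = 3; exact sign-flip permutation test, two-sided, p = 0.25). In miR-28a the mature 3p counts were 2.82, 2.73 and 1.5 times the 5p counts, a mean log2 ratio of 1.18 ± 0.51 (SD, n = 3; the same exact test, p = 0.25). With 3 libraries 0.25 is the smallest p this test can give, so none of these comparisons can pass 0.05. The balance between the arms was shifted towards 5p in miR-151 relative to miR-28a by 3.12 ± 0.42 on the log2 scale (SD, n = 3; exact p = 0.25), and by at least 2.68 in each library. Because opposite arms led in every library, the sign of this difference and its p were fixed, and only its size is informative.

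As shares, the 5p arm held 79.3% ± 2.30 of the mature counts of miR-151 and the 3p arm 69.0% ± 7.81 of those of miR-28a (SD, n = 3 each). For miR-28a replicates 1 and 2 had 3p shares of 73.8% and 73.2%, whereas replicate 3 had 60.0%, whose exact binomial 95% interval from 54.9% to 64.9% lay below the intervals of the other libraries. The hairpin entries of miR-28a did not set replicate 3 apart. There the 3p arm held 70.5%, 78.1% and 74.2% of the counts in replicates 1, 2 and 3. The hairpin entries of miR-151 were again led by the 5p arm, with 74.9% ± 2.75 (SD, n = 3).

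For miR-708 the mature counts came from the 5p arm alone. How many other precursors had mature counts on a single arm was not counted. With miR-708-3p at 3 counts or fewer, miR-708-5p was at least 164-fold higher in replicate 1, at least 117-fold in replicate 2 and at least 69-fold in replicate 3. In the hairpin entries miR-708-3p had 60 counts in replicate 1, against 137 for miR-708-5p, and 0 in the other libraries, where miR-708-5p had 153 and 27. The counts of miR-708-3p thus rest on replicate 1 alone.

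An arm that leads at least 2-fold in every library was common. Of the 117 precursors with at least 10 mature counts on each arm, summed over the libraries, 61.5% had such an arm, 39.3% with 5p higher and 22.2% with 3p higher. Of the family, miR-151 met this criterion with its 5p arm, miR-28a did not because of its 1.5-fold ratio in replicate 3, and miR-708 was not among the 117 precursors because its 3p arm had no mature counts. The arms of miR-151 and miR-28a were closer to balance than those of many precursors. Over the 48 of these precursors with both arms in every library the median size of the mean log2 ratio was 3.45, and 12 of them were nearer to 0 than miR-151 and 8 nearer than miR-28a.

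**Figure D2:**
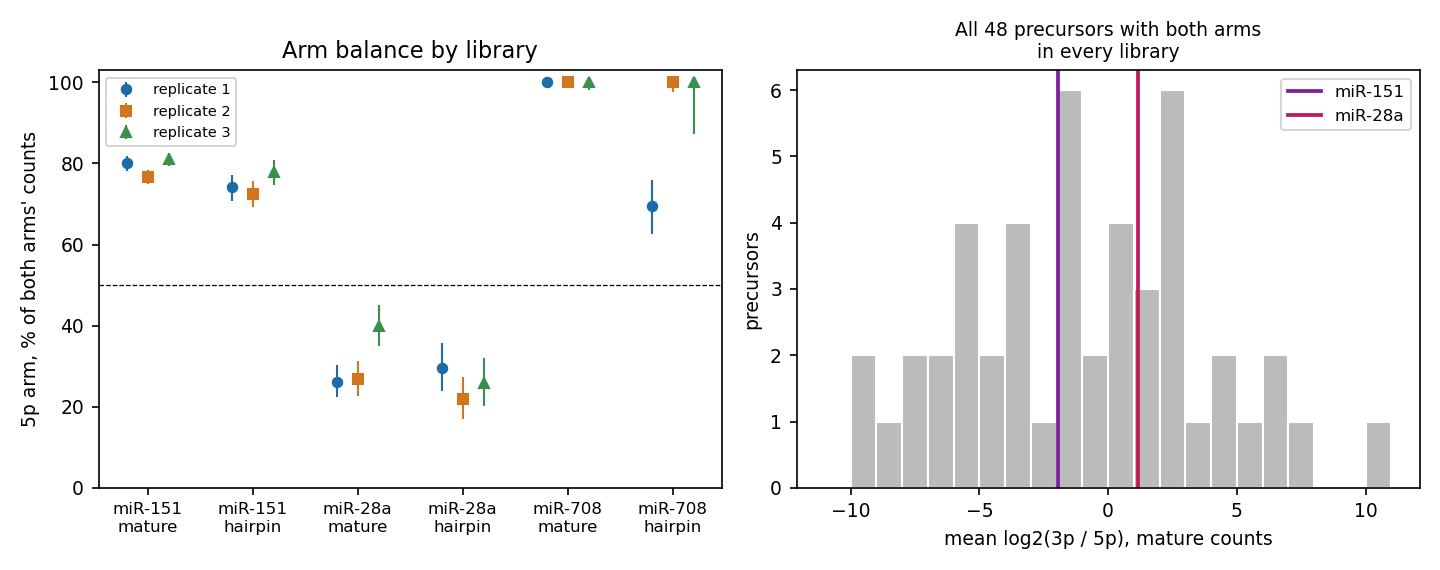
Left, the 5p arm as percent of the counts of both arms for each hairpin and library, in mature and hairpin entries, with exact binomial 95% intervals and a dashed line at equal arms. Right, the number of precursors by the mean log2 ratio of mature 3p to 5p counts, over the 48 precursors with both arms in every library. miR-151 lies on the 5p side at -1.94 and miR-28a on the 3p side at 1.18.

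The relatives were compared arm by arm in the same way. The summed mature arms of miR-151 exceeded those of miR-28a 3.65-fold, 6.20-fold and 5.74-fold in replicates 1, 2 and 3, a mean log2 ratio of 2.34 ± 0.41 (SD, n = 3; exact p = 0.25). In the hairpin entries the excess was smaller, with 3-fold, 2.86-fold and 3.24-fold. In the mature entries the ratio of the 5p arms was above that of the 3p arms in every library, which restates the difference in arm balance. miR-151-5p exceeded miR-28a-5p by a log2 ratio of 3.72 ± 0.37 (SD, n = 3; exact p = 0.25), with 11.2-fold, 17.7-fold and 11.6-fold in replicates 1, 2 and 3. On the 3p side miR-151-3p was 0.981, 1.97 and 1.81 times miR-28a-3p, so that the direction differed between libraries (log2 ratio 0.60 ± 0.55, SD, n = 3; exact p = 0.5). In the hairpin entries these 3p arms were nearly equal, with ratios of 1.10, 1.00 and 0.964.

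The arms with the seed AGGAGCU, miR-28a-5p and miR-708-5p, together had 713, 465 and 376 CPM of the mature counts in replicates 1, 2 and 3. miR-708-5p supplied 79.2%, 75.2% and 57% of these counts, a mean of 70.5% ± 11.8 (SD, n = 3). It was above miR-28a-5p in every library, by 3.81-fold, 3.03-fold and 1.33-fold (log2 ratio 1.31 ± 0.80, SD, n = 3; exact p = 0.25). In replicate 3 the share of miR-708-5p had an exact binomial 95% interval from 51.8% to 62.2%, below the intervals of the other libraries. In the hairpin entries the direction changed between libraries, with miR-708-5p at 1.90, 2.64 and 0.466 times miR-28a-5p (exact p = 0.75). Over the 14 ratios tested in mature and hairpin entries, the Benjamini-Hochberg adjusted exact p lay between 0.318 and 0.75.

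The 5 members with mature counts had more mature than hairpin counts in every library. miR-708-3p went the other way, with 0 mature and 60 hairpin counts in replicate 1, and since the 5 were taken for having mature counts, their number is a description. The authors list mature and hairpin entries under the same identifier and do not define the hairpin type. Of the identifiers with at least 10 counts in every library, 35.4% of all 395 and 39.5% of the 347 annotated ones had more mature counts in each library. The share of mature in mature plus hairpin counts was 75.9% ± 3.11 for miR-151-5p, 71.0% ± 5.0 for miR-151-3p, 67.9% ± 4.49 for miR-28a-5p and 62.3% ± 5.01 for miR-28a-3p (SD, n = 3 each). The median over the 395 identifiers was 47.1%, while in the libraries as a whole mature counts made up between 62.2% and 63.8%. Except for miR-28a-3p, which was below it in replicates 2 and 3, the counted members were above the value of the whole library in every library. Only miR-151-5p and miR-708-5p had exact binomial intervals wholly above that value in every library. In replicate 1, where it was 63.8%, the interval of miR-28a-5p reached from 57.1% to 70.8%. That of miR-151-3p reached from 61.2% to 69.4%. How many of the 395 identifiers were above the value of the whole library was not counted, so this only describes the members.

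miR-708-5p had the most variable mature share, with 78.2%, 69.7% and 88.5% in replicates 1, 2 and 3 and a mean of 78.8% ± 9.39 (SD, n = 3). The high value in replicate 3 went with its hairpin entry, which had 137, 153 and 27 counts. As CPM of the hairpin counts this was 278, 250 and 46.8, a 5.94-fold range, whereas the hairpin entries of miR-28a-3p, miR-151-5p, miR-151-3p and miR-28a-5p ranged 1.21-fold, 1.22-fold, 1.37-fold and 1.54-fold. Of the 324 hairpin entries with at least 10 counts in every library, 43.2% had a range of 2-fold or more. Both the mature and the hairpin counts of miR-708-5p were therefore lowest in replicate 3.

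**Figure D3:**
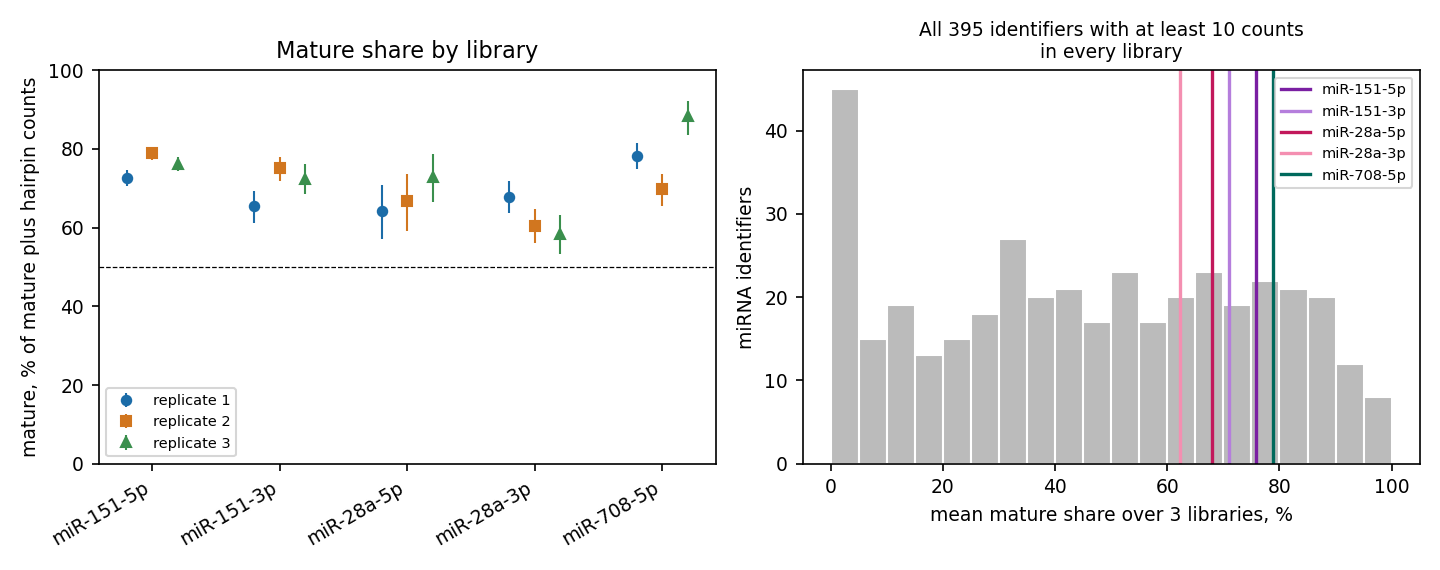
Left, mature counts as percent of mature plus hairpin counts for the 5 counted members in each library, with exact binomial 95% intervals and a dashed line at equal counts. Right, the number of identifiers by their mean mature share, over all 395 with at least 10 counts in every library, with the members as lines. The members lie between 62.3% and 78.8%.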

How the data were processed

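Small RNA of PND7 testis EVs was measured in 3 libraries of 10 pooled mice each. The authors sequenced on the BGISEQ-500 platform, removed reads of low quality, and mapped the rest with Bowtie2 (named in the submitters' processing notes, with mm10 as the build) and cmsearch. Each read went to a single class by a fixed order of databases. They deposited raw read counts per small RNA and per class, not normalized, and each class as a percent of clean reads, which was not used. A further deposited column carries a heading for molecular identifiers, but on all 6253 rows with a small RNA name it was the count per 1000000 clean reads (within 0.0001% of the value), and it was left out. The clean reads numbered 25716952, 26002463 and 27939308.

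Counts were scaled to CPM of the mature, or hairpin, counts of each library. Mean, SD (n = 3), exact binomial (Clopper-Pearson) 95% intervals and exact two-sided sign-flip permutation tests of log2 ratios within libraries were computed, with Benjamini-Hochberg adjustment over 14 ratios. An absent entry was a count of 0, with 3 counts as its upper limit. The labels number the samples as biological replicates. Arm calls were checked on simulated counts for the arms of all precursors, with random counting noise (Poisson) alone. Of 117 precursors, 20 were set 4-fold apart with 3p higher, and the rest had equal arms. All 20 were recovered, with 0 false calls. Arms near 0 counts and further spread of the arm ratio between libraries were not simulated, so this gives no error rate for the real libraries. The rule named all members, miRNAs with the seed of a member, other miR-28 entries, and the 2 mature miRNAs closest in level to each member. The members and lists were chosen with earlier results of these data known, and the tests of 4 ratios (miR-708-5p, miR-151-5p and miR-151-3p against miR-28a arms, and the difference in arm balance) were added after the counts were seen. Positions came from GENCODE vM21 (GRCm38) and sequences from RefSeq. Alternatives changed the denominator, the entries summed, the scaling, the pseudocount (0.5), pooling, and each replicate left out. Scripts ran in Python 3.11.15 with SciPy 1.17.1, numpy 2.4.6 and pandas 2.3.3, and figures were drawn in matplotlib 3.10.9.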

Additional observations from a re-analysis of the deposited data

Results flagged for a closer look

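The catalogues also count reads on precursor families of Rfam, which entered none of the comparisons. The family named mir-28 had 93, 76 and 96 counts in replicates 1, 2 and 3, above the limit of 3 counts that a count of 0 allows. The family named mir-708 had 17 counts in replicate 2, 3 in replicate 3 and 0 in replicate 1. The source of these counts within the hairpins was not tested, and there was no control library.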

How the results depend on the processing

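The direction of the miR-151 arms, of the miR-28a arms and of miR-151 against miR-28a was the same under every alternative run for them. Leaving out each replicate gave log2 ratios from 1.87 to 2.06, from 1.02 to 1.47 and from 2.19 to 2.58 for these, and in hairpin entries they were 1.58, 1.54 and 1.6. With both entries summed, the family held 0.275% of mature and hairpin counts. Its mature counts alone were 0.319% of the mature counts, 0.184% of all miRNA counts and 0.0114% of the clean reads. For the same mature counts, larger denominators lower the share by construction. Without each replicate in turn the family share ranged from 0.306% to 0.332%. The share of precursors with an arm leading at least 2-fold ranged from 65.3% to 68.0% without each replicate, fewer libraries having to meet the criterion, and was 71.1% with at least 10 counts in every library. Without replicate 3, the miR-28a arms were 2.73-fold or more apart in the remaining libraries. For the levels and mature shares of single members, 10 of 60 alternative values lay over 1 SD from the value reported, 9 of them through the denominator of all miRNA counts or clean reads. A ratio for the miR-708 arms needs a pseudocount, and with 0.5 the mean log2 of 5p over 3p was 9.37. No analysis paired between groups was possible because the replicate numbers link no second group. The ratios above were paired by library, each comparing entries within the same library. Among the members with mature counts, miR-28a-5p had the fewest, with 116 to 156 in a library.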
